A study of Mus musculus with 23 samples.

Results

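The 9 genes described here, Mag, Mbp, Mog, Mobp, Opalin, Cnp, Olig1, Sox10 and Pdgfra, are marker genes of oligodendrocytes, of their myelin and of their precursors, and were taken by symbol from the 19945 genes of a bulk RNA-seq table. The table holds 23 libraries from an experiment in which cultured group 2 innate lymphoid cells (ILC2s, tissue lymphocytes known for type 2 cytokines) were transferred into mice with stroke. Donors were male mice of 8 to 10 weeks, wild type or of the line B6.Cg-Tg(CAG-GFP)Smoc, in which the CAG promoter drives GFP. They received IL-33 every 2 days over 7 days, and lineage-negative CD25+ cells of bone marrow and spleen were cultured for 14 days with IL-33 and the interleukins IL-7, IL-15 and IL-2 before a sort for CD45+ Lin- ST2+ KLRG1+ CD127+ cells. Recipients got the cells intravenously 6 h after occlusion of the middle cerebral artery (MCAO), an ischemic stroke model.

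The groups were 6 libraries labelled as transferred cells recovered from the brain on day 5 after MCAO (brain day 5), 6 from the blood on day 5 (blood day 5), 6 from the blood on day 1 (blood day 1), and 5 from the cultured cells before transfer (culture baseline). The labels name 2 batches, each with libraries of all 4 groups, replicates 1 to 3 in batch 1 and the others in batch 2. Every library carries that transgenic line as its genotype label. The sources used here do not state how cells were sorted on recovery, the age and genotype of recipients, or whether each replicate is 1 animal, so p-values measure the spread between these libraries, which may be technical.

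Oligodendrocytes wrap axons of the central nervous system in myelin, a stack of compacted membrane that speeds conduction. They arise from dividing precursors that carry the PDGF receptor PDGFRA, and the transcription factors OLIG1 and SOX10 act along the lineage. Mature cells then transcribe the genes of myelin proteins such as MBP, MOBP, MAG and MOG. Several members are not exclusive to the lineage: the Mbp locus also gives golli transcripts in immune cells, Cnp is transcribed in other cell types, and Pdgfra marks fibroblasts as well.

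Values are the authors' normalized counts, that is reads per gene divided by 1 size factor per library, and libraries held 11606756 to 16935503 reads on genes in batch 1 and 27796934 to 58059558 in batch 2. Of the ILC2 genes, Klrg1 and Gata3 were near 0 in the brain libraries, while others such as Rora (793 to 1235 normalized counts) and Ptprc (700 to 2785) were not. A list of ILC2 gate and identity genes took 0.00699% to 0.0202% of the normalized total in brain day 5, against 0.212% to 0.284% in blood day 5. Of its 9 tested genes, 6 were called lower in brain day 5 than in blood day 5 and 0 higher. Klrg1 was at 1.87 to 23.4 normalized counts in brain day 5, against 4367 to 22020 in blood day 5, 2182 to 10246 in blood day 1 and 15664 to 50175 at culture baseline. Gata3 was at 0 to 22.2 in brain day 5, against 1270 to 1895 in blood day 5. In all, 4 libraries stood apart from their own group by correlation over all genes, namely brain day 5 replicate 2, blood day 1 replicates 2 and 6, and culture baseline replicate 5, and results are given with and without them.

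All 9 members were higher in brain day 5 than in blood day 5 (limma with Benjamini-Hochberg adjustment over all 15268 genes tested, adjusted p under 0.05), and in each of the 9 every brain library lay above every blood day 5 library. Across all genes tested, 33.6% were called higher in this comparison and 24.9% had no overlap in that direction. The median log2 difference of the members was 9.15, against 0.47 over all genes tested. The members' sum took 0.694% to 1.25% of the normalized total in brain day 5, against 0.0651% to 0.183% in blood day 5, 0.0461% to 0.204% in blood day 1 and 0.0158% to 0.0440% at culture baseline. Without Cnp, which other cell types also transcribe, it took 0.540% to 1.08% in brain day 5 and 0.0166% to 0.128% in blood day 5. In blood day 1 that sum took 0.0111% to 0.0779%, and at culture baseline 0.00203% to 0.00395%. Within batch 1 alone the log2 differences ran from 1.698 (Cnp) to 12.94 (Pdgfra) and within batch 2 alone from 2.24 (Cnp) to 12.14 (Pdgfra), and all 9 members were called in each batch. Of all genes tested, 4006 of 15184 were called higher in batch 1 alone and 4222 of 15268 in batch 2 alone. The change of the difference between the batches was itself tested, a test added after the values were seen, and 0 of 9 members were called (limma, 0 also at unadjusted p under 0.05), where 1.05% of all genes were called. In bulk RNA, fewer cells of a type and less RNA per cell cannot be told apart.

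**Figure D1:**
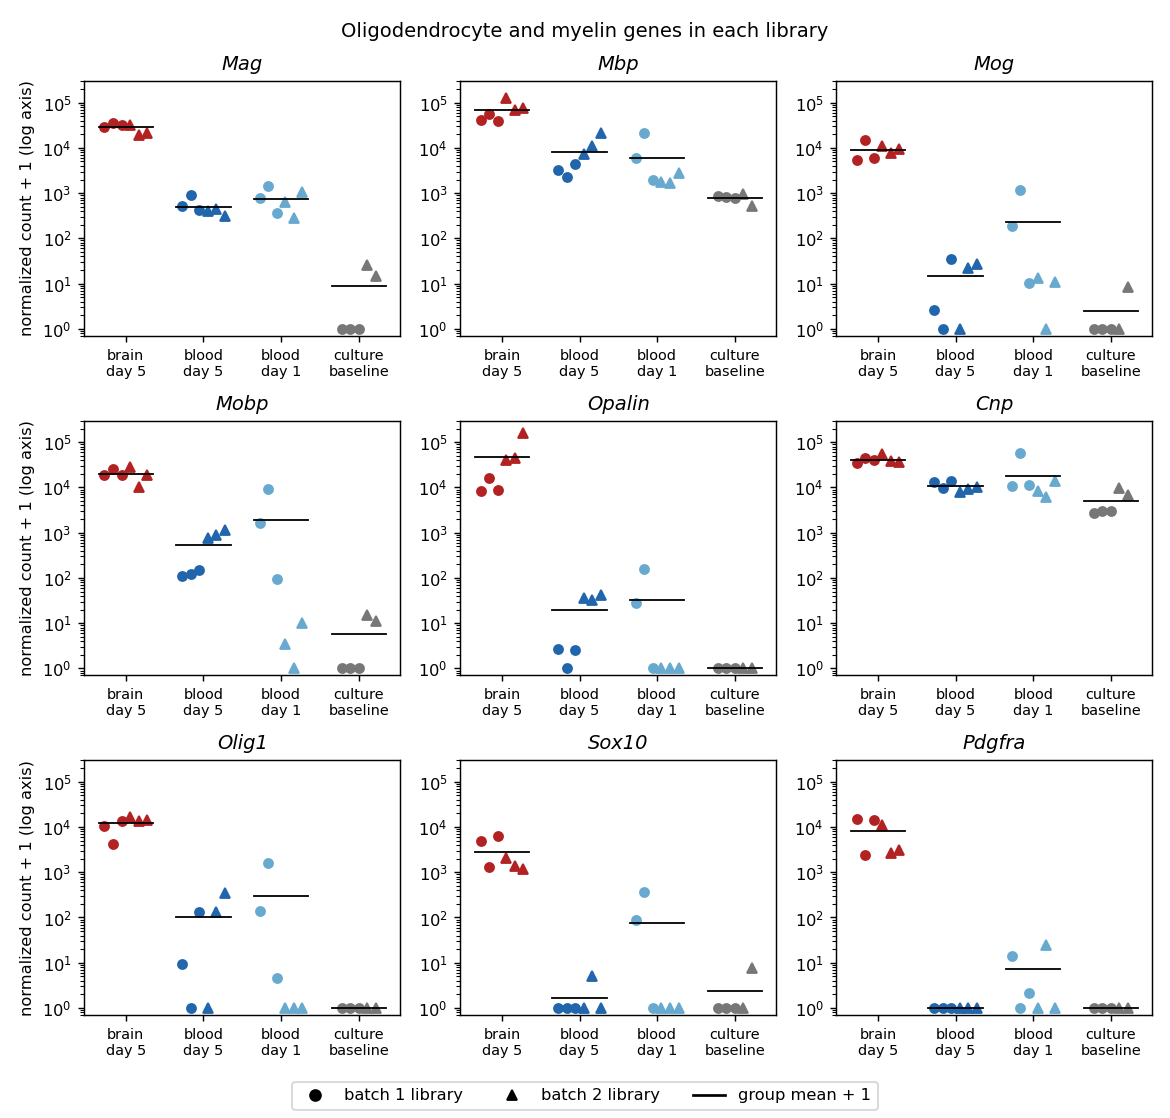
Normalized count plus 1 of each member (log vertical axis) in the single libraries of brain day 5, blood day 5, blood day 1 and culture baseline; circles are batch 1, triangles batch 2 and black lines group means plus 1. The 6 brain libraries lie above all others for every member except Cnp, where blood day 1 replicate 2 reached 57227. That library had the highest normalized total of all, 45458796.

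Mbp encodes myelin basic protein, which holds the cytoplasmic faces of compact myelin together, and its mRNA is known to be carried into oligodendrocyte processes. Its normalized counts in brain day 5 replicates 1 to 6 were 40960, 55320, 39368, 128353, 67758 and 77172. The blood day 5 libraries held 3164, 2310, 4367, 7223, 10855 and 21790. All brain libraries were above all blood libraries, but the nearest pair differed by only 1.81-fold, and the log2 difference was 3.34 ± 0.56 (SE, limma adjusted p = 2.41e-05). Blood day 1 ranged from 1652 to 21189 with a median of 2384, and culture baseline averaged 777 ± 163 (SD, n = 5), so Mbp was present in every one of the 23 libraries. Gene-level counts do not tell the classic transcripts from golli transcripts.

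Mobp, another protein of compact myelin, was at 18372, 24987, 18792, 27973, 10153 and 19241 normalized counts in brain day 5. Blood day 5 held 108, 124, 147, 767, 897 and 1121. These groups did not overlap, and the log2 difference was 5.80 ± 1.59 (SE, limma adjusted p = 0.00404), the largest standard error relative to its difference among the members. The 3 batch 1 libraries of blood day 5 were all below the 3 of batch 2, so the difference was 7.34 within batch 1 and 4.26 within batch 2.

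Mag encodes myelin-associated glycoprotein, an adhesion molecule of the myelin membrane that faces the axon. It was steady across the brain libraries at 29031, 35975, 32228, 32719, 19365 and 21805 normalized counts. The blood day 5 values were 511, 924, 422, 396, 456 and 313. The lowest brain library was 21.0 times the highest blood day 5 library, and the log2 difference was 5.87 ± 0.66 (SE, limma adjusted p = 1.05e-07).

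Mog, a protein of the outermost myelin surface and a classic target in autoimmune demyelination models, separated the groups further. Brain day 5 held 5375, 15200, 6046, 10749, 7669 and 9630 normalized counts, against 1.65, 0, 33.2, 0, 21.1 and 25.8 in blood day 5. The blood day 5 values came from 113 reads in all. The log2 difference was 10.44 ± 1.30 (SE, limma adjusted p = 4.34e-07).

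Opalin, a transmembrane protein of mature oligodendrocytes, was the most uneven member in the brain. Its 6 brain libraries held 8467, 16498, 8568, 40885, 44521 and 159032 normalized counts, against 1.65, 0, 1.58, 34.9, 30.7 and 40.1 in blood day 5. Batch 2 libraries were higher than batch 1 libraries in both groups. The difference from blood day 5 was 11.65 ± 1.24 on the log2 scale (SE, limma adjusted p = 4.24e-08), and it was 12.45 within batch 1 and 10.84 within batch 2.

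Cnp encodes an enzyme of non-compact myelin, CNPase, and showed the smallest difference. Its brain libraries held 34139, 44507, 40150, 55073, 37597 and 36971 normalized counts, against 13355, 9791, 13666, 7805, 9165 and 10176 in blood day 5. The means were 41406 ± 7549 in brain day 5 and 10660 ± 2353 in blood day 5 (SD, n = 6 each), a 3.88-fold ratio, and the log2 difference was 1.97 ± 0.40 (SE, limma adjusted p = 2.71e-04). Its exons overlap those of Dnajc7 on the opposite strand over 154 bp, and the sources used here do not state the strand setting of the counting, so reads there could belong to either gene.

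Olig1, a basic helix-loop-helix transcription factor of the lineage, was at 10613, 4141, 13329, 16740, 13608 and 14616 normalized counts in brain day 5. Blood day 5 held 8.27, 0, 131, 0, 134 and 346. Brain replicate 2 was well below the other 5, yet still 11.95 times the highest blood day 5 library. The log2 difference was 9.15 ± 1.65 (SE, limma adjusted p = 6.32e-05). Its exons overlap the opposite-strand transcript Gm15966 over 157 bp, with the same uncertainty over strand.

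Sox10, the transcription factor that activates myelin genes, was at 4997, 1285, 6278, 2031, 1402 and 1199 normalized counts in brain day 5. Among the blood day 5 libraries it had reads in only 1, replicate 5, with 9 reads or 4.13 normalized counts. The groups were far apart, with a log2 difference of 10.76 ± 1.21 (SE, limma adjusted p = 1.03e-07).

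Pdgfra, the receptor that marks the precursors, was at 14710, 2362, 14071, 10938, 2686 and 3132 normalized counts in brain day 5 and at 0 in all 6 blood day 5 libraries. Against a floor of 3 reads per library, its mean was at least 2641-fold higher in brain day 5, and at least 2242-fold within batch 1 and 3946-fold within batch 2. The fitted log2 difference was 12.54 ± 0.77 (SE, limma adjusted p = 4.54e-12). Its exons overlap the antisense transcript Gm42802 over 456 bp. Because Pdgfra also marks fibroblasts, the fibroblast and mural list belongs beside it: that list took 0.276% to 1.08% of the normalized total in brain day 5, against 0.00845% to 0.0101% in blood day 5, and its part in the Pdgfra values was not tested.

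**Figure D2:**
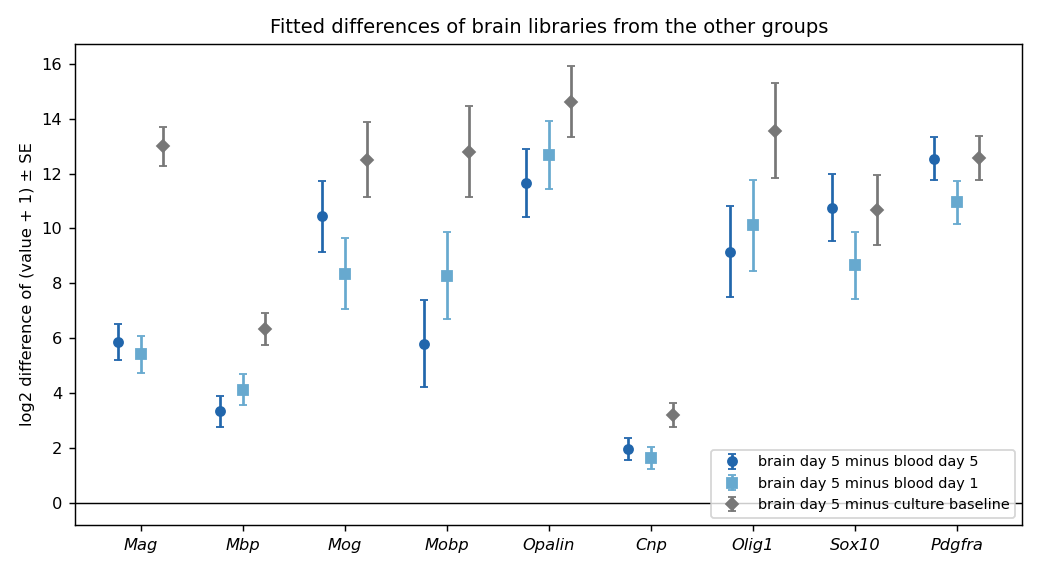
Fitted log2 differences with their standard errors (vertical axis, log2 of value plus 1) of brain day 5 from blood day 5, blood day 1 and culture baseline for each member. All 27 differences are above 0, from 1.65 for Cnp against blood day 1 to 14.62 for Opalin against culture baseline.

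Against blood day 1, all 9 members were again higher in brain day 5, where 37.3% of all genes tested were called higher. The log2 differences ran from 1.65 for Cnp to 12.67 for Opalin, with a median of 8.35 against 0.77 over all genes tested. In 8 members the groups did not overlap, where 22.2% of all genes tested had every brain library above every blood day 1 library. For Cnp, blood day 1 replicate 2 with 57227 normalized counts lay above every brain library, and the log2 difference of 1.65 ± 0.40 (SE, limma adjusted p = 0.00152) was not called by edgeR's quasi-likelihood test on the recovered reads (log2 0.89, adjusted p = 0.104). The normalized total of blood day 1 replicate 2 was 45458796. It was 17654812 to 20810976 in the other blood day 1 libraries and 21683344 to 28861303 in brain day 5. As a share of these totals, Cnp in replicate 2 of blood day 1 was below every brain library. Mobp nearly touched in normalized counts, since the lowest brain library was 1.07 times blood day 1 replicate 2, and its difference of 8.28 ± 1.59 (SE, limma adjusted p = 1.31e-04) was also not called by edgeR (log2 2.98, adjusted p = 0.101). As a share of the normalized totals, Mobp in blood day 1 replicate 2 lay further below the brain libraries. Within batch 1 alone 8 of the 9 were called, Cnp at 1.05 being the exception (adjusted p = 0.129), and within batch 2 all 9 were. Of all genes tested, 4256 of 15184 were called higher in batch 1 alone and 4498 of 15268 in batch 2 alone.

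Against culture baseline, all 9 were higher in brain day 5 without overlap, where 37.5% of all genes tested were called higher and 28.4% had no overlap in that direction. Opalin, Olig1 and Pdgfra had no read in any of the 5 baseline libraries. Their brain means were at least 11527-fold, 3029-fold and 1986-fold higher than the floor of 3 reads per library. The bound for Opalin differed between batches, at least 2116-fold in batch 1 and at least 38353-fold in batch 2, and it was at least 5918-fold without brain replicate 6. For Olig1 it was at least 1772-fold in batch 1 and 7055-fold in batch 2. The other 6 members differed by 3.21 (Cnp) to 12.99 (Mag) on the log2 scale. All 9 were called within each batch, where 4637 of 15184 genes were called higher in batch 1 and 5161 of 15268 in batch 2. The 3 comparisons share the brain libraries. Without the 4 libraries that stood apart, all 9 members were still called higher in brain day 5 against each of the other groups. Of 15268 genes tested, 6376 were then called higher against blood day 5, 6253 against blood day 1 and 6222 against culture baseline.

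Levels were compared between genes per kilobase of exon, from GENCODE M21 gene models. In brain day 5, Opalin averaged 15726 normalized counts per kb with a range from 2874 to 53982. Without replicate 6 its mean was 8075 per kb, below that of Cnp. Cnp followed at 11378, Mbp at 8048, Mag at 7004, Olig1 at 5631, Mog at 5347, Mobp at 2908, Sox10 at 939 and Pdgfra at 796. The ranges of every pair of neighbours in this order overlapped, so no single step in it was larger than the spread. The structural myelin genes and Olig1 were thus at means from 2908 to 15726 per kb, with Sox10 and Pdgfra lower. At culture baseline, Cnp stood at 1404 and Mbp at 91.7 per kb, and the other 7 were below 2 per kb.

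Within the brain group the members did not vary together. The highest brain library was 18.8 times the lowest for Opalin, 6.23 times for Pdgfra, 5.24 times for Sox10 and 4.04 times for Olig1. The spread was narrower for the structural genes, 3.26 times for Mbp, 2.83 times for Mog, 2.76 times for Mobp, 1.86 times for Mag and 1.61 times for Cnp. The genes of the myelin sheath other than Opalin were thus the more even ones, and the transcription factors and the precursor receptor the more uneven ones.

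**Figure D3:**
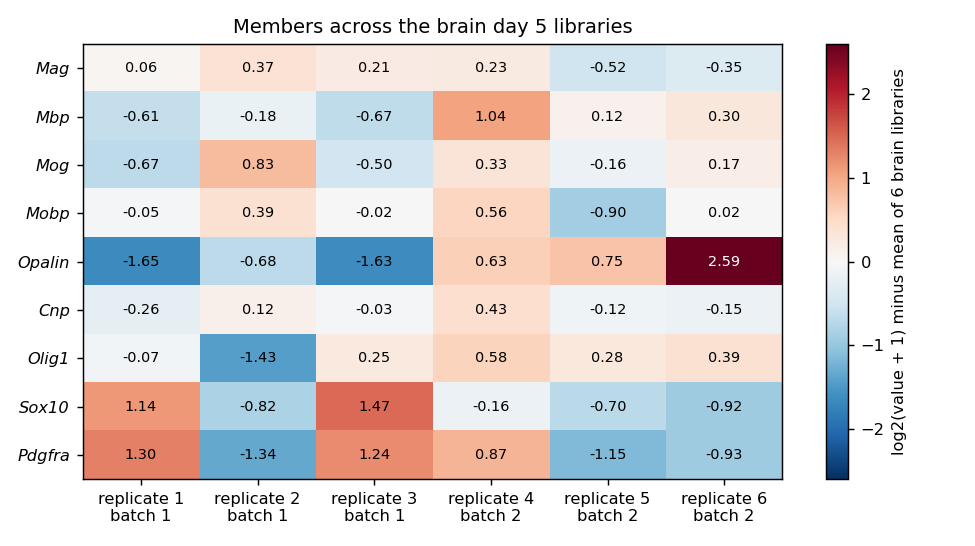
Log2(value + 1) of each member in each brain library minus the mean of the 6 brain libraries, by gene (rows) and replicate with its batch (columns). Replicates 1 and 3 are high for Sox10 and Pdgfra and low for Opalin, replicate 2 is low for Olig1, Sox10 and Pdgfra but high for Mog, and replicate 6 is 2.59 above the mean for Opalin.

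Brain replicates 1 and 3 shared a profile, with the highest Sox10 (4997 and 6278) and Pdgfra (14710 and 14071) and the lowest Mog (5375 and 6046) and Opalin (8467 and 8568) normalized counts. Replicate 2, of the same batch, had the highest Mog (15200) and Mag (35975) but the lowest Olig1 (4141) and Pdgfra (2362). Per kilobase, Pdgfra was 0.465, 0.0264, 0.396, 0.173, 0.0595 and 0.0553 of Mog in replicates 1 to 6, so the ratio of the precursor receptor to the myelin gene was highest in replicates 1 and 3. The summed fibroblast and mural list was also lowest in replicate 2, at 0.276% of the normalized total, against 0.677% to 1.08% in the other 5 brain libraries. Replicates 5 and 6, with Pdgfra nearly as low at 2686 and 3132, had that list at 1.07% and 0.843%. Its part in the low Pdgfra values was not tested. Cspg4, another precursor gene, ranged from 654 to 12152 and Tnr from 199 to 6729 over the 6 brain libraries.

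Some of the ratios between members split by batch, and others, such as Mobp to Mag, did not. Per kilobase, Sox10 was 0.220 to 0.334 of Olig1 in the 3 brain libraries of batch 1 and 0.0581 to 0.0860 in the 3 of batch 2. Mbp was 0.587 to 0.739 of Mag in batch 1 and 1.68 to 1.89 in batch 2. Opalin was 0.628 to 0.911 of Mog in batch 1 and 2.20 to 9.55 in batch 2. The ranges of Sox10 to Olig1, Mbp to Mag and Opalin to Mog did not overlap, but 3 libraries against 3 are few, and the ratios were not tested. By limma, which tested single genes, no member was called different between batches within brain day 5, where 0.963% of all genes were called. The largest, Opalin, was 2.64 ± 1.20 higher in batch 2 on the log2 scale (SE, limma adjusted p = 0.570, unadjusted p = 0.0408). Opalin alone made up 4.79% to 8.24% of the members' sum in the batch 1 brain libraries and 12.6% to 46.4% in those of batch 2.

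The members' promoters were read from RefSeq windows (GRCm38.p6) of 300 bases, from 250 before to 50 after the gene start, which were found for 6 members (Mag, Mog, Mobp, Opalin, Cnp, Pdgfra). The core ACAAAG, or CTTTGT on the other strand, is recognised by SOX proteins such as SOX10, and 18.7% of all 32851 windows of this length held it. Mobp held 6 copies, the only window of all to hold 6 or more, Opalin held 2 (2.37% of windows held at least as many), and Cnp held 1. So did 2 of the 3 Mag windows, which overlap and hold the same copy. Mog and Pdgfra held none, which says only that these letters are not in the window. The sequences of Mobp, Opalin and Mog are shown because these 3 myelin genes were all high in the brain libraries and differ most in this core. Capitals mark each copy, and all run 5′ to 3′ on the strand of the gene.
Mobp, chr9:120149492-120149791, plus strand: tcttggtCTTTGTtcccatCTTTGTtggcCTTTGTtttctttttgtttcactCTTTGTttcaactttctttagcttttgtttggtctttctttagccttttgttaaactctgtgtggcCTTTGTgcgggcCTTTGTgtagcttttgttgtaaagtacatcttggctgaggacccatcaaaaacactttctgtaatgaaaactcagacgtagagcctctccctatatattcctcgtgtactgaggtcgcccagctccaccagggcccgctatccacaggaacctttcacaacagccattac
Opalin, chr19:41077064-41077363, minus strand: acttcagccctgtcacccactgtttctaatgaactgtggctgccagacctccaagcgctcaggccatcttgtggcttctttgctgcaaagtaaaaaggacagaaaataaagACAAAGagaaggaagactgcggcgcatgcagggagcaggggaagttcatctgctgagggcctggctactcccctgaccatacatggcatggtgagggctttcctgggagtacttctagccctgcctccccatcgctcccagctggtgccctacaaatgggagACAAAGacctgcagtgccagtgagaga
Mog, chr17:37023349-37023648, minus strand: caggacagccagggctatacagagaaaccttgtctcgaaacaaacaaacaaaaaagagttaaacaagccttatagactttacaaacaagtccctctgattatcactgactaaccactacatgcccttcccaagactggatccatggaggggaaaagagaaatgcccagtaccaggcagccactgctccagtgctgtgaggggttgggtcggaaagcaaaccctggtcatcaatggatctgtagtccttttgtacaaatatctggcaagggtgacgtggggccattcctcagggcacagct
Per kilobase, Mobp with 6 copies averaged 2908 normalized counts and Mog with none 5347 in the brain libraries. A match of letters is a description and not a shown binding site.

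In blood, 4 members were higher at day 5 than at culture baseline, where 19.6% of all genes tested were called higher. Mag averaged 504 ± 216 normalized counts in blood day 5 (SD, n = 6), against 0, 0, 0, 25.1 and 14.0 in the baseline libraries, and its log2 difference was 7.11 ± 0.70 (SE, limma adjusted p = 4.01e-08). Mobp, at 0, 0, 0, 14.2 and 10.3 in the baseline libraries, differed by 7.00 ± 1.67 (SE, limma adjusted p = 0.00226). Mbp was 2.99 ± 0.59 higher on that scale (SE, limma adjusted p = 3.44e-04). Each of these 3 had every blood day 5 library above every baseline library, where 15.2% of all genes tested did. Within batch 1 and batch 2 the differences were 9.19 and 4.28 for Mag, 6.98 and 6.13 for Mobp, and 1.97 and 4.10 for Mbp. Cnp overlapped, at 7805 to 13666 in blood day 5 against 2784 to 9961 at baseline, and its 1.24 ± 0.42 (SE, limma adjusted p = 0.0287) was 2.04 within batch 1 and 0.14 within batch 2. Its call was lost without any 1 of culture baseline replicates 1, 2 or 3 or blood day 5 replicates 1 or 3 (adjusted p from 0.0598 to 0.0830), and with edgeR (adjusted p = 0.0875) and DESeq2 (adjusted p = 0.0794). Within culture baseline itself, Mag was 4.31 ± 0.56 higher in batch 2 than in batch 1 on the log2 scale (SE, limma adjusted p = 8.77e-05, a test added after the values were seen), where 7.28% of all genes were called. Batch 2 libraries were also the more deeply sequenced ones, and the part of depth in these low values was not tested.

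The remaining 5 members did not pass the test in blood day 5 against culture baseline. Olig1 had reads in 4 of 6 blood day 5 libraries and in no baseline library, with an adjusted p of 0.0579 in limma, and Opalin had reads in 5 of 6 with an adjusted p of 0.0903. Opalin was 0.93 higher within batch 1 (adjusted p = 0.705) and 5.17 higher within batch 2, where it was called (adjusted p = 0.00192). Olig1 was called without blood day 5 replicate 2 (0.0182), blood day 5 replicate 4 (0.0311) or blood day 1 replicate 2 (0.0238), and Opalin without blood day 5 replicate 2 (0.0497) or blood day 1 replicate 2 (0.0305). Mog had an adjusted p of 0.28. Sox10 had 9 reads in each of the 2 groups, and Pdgfra had none. Blood day 5 libraries therefore held Mag, Mbp, Mobp and Cnp while Sox10 and Pdgfra were at or near 0. Without the 4 libraries that stood apart, 5 members were called in place of 4, Olig1 being the fifth (adjusted p = 0.0370). In that fit 3530 of 15268 genes were called higher.

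Blood day 1 had 5 members called higher than culture baseline, where 18.1% of all genes tested were called higher. They were Mag (7.57 ± 0.70), Mbp (2.20 ± 0.59), Mog (4.16 ± 1.36), Mobp (4.52 ± 1.67) and Cnp (1.56 ± 0.42; log2 differences ± SE), with limma adjusted p-values of 1.71e-08, 0.00589, 0.0229, 0.0423 and 0.00686. Within batch 1 and batch 2 they were 9.53 and 4.86 for Mag, 2.97 and 1.53 for Mbp, 7.03 and 0.86 for Mog, 10.16 and -2.01 for Mobp, and 2.69 and 0.13 for Cnp, and in batch 2 only Mag was called. In batch 1 alone 7 members were called, among them Olig1 (6.67, adjusted p = 0.0274) and Sox10 (4.99, adjusted p = 0.0450). Of all genes tested, 2693 of 15184 were called higher in batch 1 alone and 1791 of 15268 in batch 2 alone. The calls of Mog and Mobp also turned on 2 libraries. Mog held 183, 1170, 9.38, 12.4, 0 and 9.73 normalized counts in blood day 1 replicates 1 to 6, and Mobp held 1665, 9465, 93.8, 2.48, 0 and 8.98. Replicates 1 and 2 held the most reads of both, and neither gene was called without replicate 1 (adjusted p = 0.0591 for Mog and 0.115 for Mobp) or without replicate 2 (0.0634 and 0.121). Leaving out culture baseline replicate 1, 2 or 3 also ended both calls (0.0514 to 0.0525 for Mog and 0.0962 to 0.0981 for Mobp), as did leaving out blood day 1 replicate 3 for Mobp (0.0660). Of the called members, Mag and Mbp had every blood day 1 library above every baseline library, where 9.7% of all genes tested did. This comparison and that of blood day 5 share the baseline libraries. The batch 2 value of Mobp was not called (adjusted p = 0.162).

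Blood day 1 replicate 2 was the highest blood day 1 library in normalized counts for 8 of the 9 members. Its normalized total, 45458796, was above that of every other library, at 16878074 to 28861303. It held 57227 normalized counts of Cnp, 21189 of Mbp, 1638 of Olig1, 368 of Sox10 and 158 of Opalin, and 0 of Pdgfra. It also had the highest share of the other brain lists among the 12 blood libraries for choroid plexus (0.0873%), microglia (0.108%), brain endothelium (0.0392%) and neuron (0.0208%), but not for astrocytes (0.00659%) or fibroblast and mural genes (0.0101%). Its share of the ILC2 list was the lowest of the 12, at 0.0331%. The part of these cell types in its values was not tested. Without the 4 libraries that stood apart, 4 members were called higher in blood day 1 than at culture baseline: Mag, Mog, Cnp and Pdgfra, with Pdgfra gained (adjusted p = 0.0274) and the calls of Mbp (adjusted p = 0.0520) and Mobp (adjusted p = 0.0813) lost. In that fit 3216 of 15268 genes were called higher. Pdgfra held 13.1, 0, 1.17, 0, 23.1 and 0 normalized counts in blood day 1 replicates 1 to 6, from 58 reads in all. The left-out replicates 2 and 6 were both at 0 for Pdgfra, so leaving them out raised its blood day 1 mean.

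**Figure D4:**
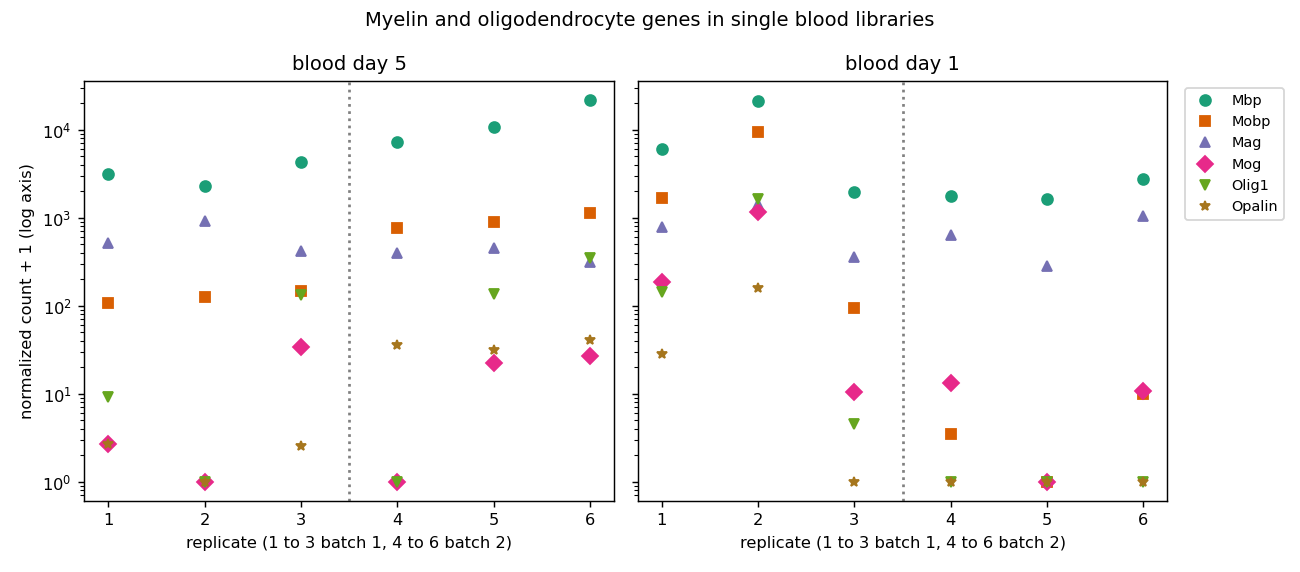
Normalized count plus 1 (log vertical axis) of 6 members in the single blood libraries by replicate (horizontal axis), blood day 5 on the left and blood day 1 on the right, with a dotted line between batches. Mobp is at 767 to 1121 in batch 2 of blood day 5 and at 0 to 8.98 in batch 2 of blood day 1, while Mag stays between 279 and 1433 in all 12.

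No member differed between blood day 5 and blood day 1 (limma, 0 of 9 called at adjusted p under 0.05 and 0 at unadjusted p under 0.05), where 0.0982% of all genes tested were called higher and 0.00655% lower. By edgeR 3 members, and by DESeq2 4 members, had an unadjusted p under 0.05, and neither called a member after adjustment. Differences within the batches had opposite signs for 7 members. Within batch 2, 3 members were higher at day 5: Mbp by 2.57 ± 0.45 (SE, limma adjusted p = 0.0409), Mobp by 8.14 ± 0.81 (adjusted p = 0.00261) and Opalin by 5.17 ± 0.78 (adjusted p = 0.0206). Of all genes tested in batch 2 alone, 67 of 15268 were called higher. Within batch 1 Mbp, Mobp and Opalin differed by -1.001, -3.18 and -3.12, and none was called, where 7 of 15184 genes were called higher. Mobp in blood day 1 was itself lower in batch 2 than in batch 1, with a log2 difference of -8.45 ± 1.08 (SE, limma adjusted p = 7.72e-05), a test chosen after the values were seen, and 1.11% of all genes were called in it.

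The proportions of the myelin genes varied more among the blood libraries than among the brain libraries. Mobp was 1.32 to 3.42 times Mog in normalized counts in the 6 brain libraries. In blood day 5, Mobp was 65.0, 4.43, 42.5 and 43.4 times Mog in replicates 1, 3, 5 and 6, and Mog was at 0 in replicates 2 and 4. In blood day 1, it was 9.09, 8.09 and 10.0 times Mog in the batch 1 replicates, 0.2 and 0.923 times in replicates 4 and 6, and both genes were at 0 in replicate 5. Many of these blood ratios rest on few reads. Mog had 1, 21, 46 and 45 reads in blood day 5 replicates 1, 3, 5 and 6. In blood day 1 replicates 4 and 6, Mobp had 4 and 12 reads and Mog 20 and 13. The part of counting error in the spread of these ratios was not tested. Mbp was 1.22 to 3.92 times Mag in brain day 5, against 2.5 to 69.6 times in blood day 5 and 2.63 to 14.8 times in blood day 1, so that blood day 5 replicate 2 and blood day 1 replicates 4 and 6 lay within the brain range. Mag, in turn, was at 279 to 1433 normalized counts in all 12 blood libraries, including those in which Mog, Olig1 and Sox10 were at 0.

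Mag has a neighbour on the same strand, Cd22, whose start lies 18833 bp beyond the 3′ end of Mag on chromosome 7 (both on the minus strand) and which encodes a B cell receptor protein; it was added after its values were seen. Cd22 was at 367 to 1299 normalized counts in brain day 5, 3134 to 7093 in blood day 5, 551 to 3236 in blood day 1 and 0 to 336 at culture baseline. Both genes were thus higher in every blood library than in any baseline library, and the part of B cells in the Mag values of blood was not tested. In the brain libraries Mag was at 19365 to 35975 with Cd22 below its blood day 5 range.

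Other genes of the lineage, in 5 lists of 76 genes chosen with earlier results known, mostly differed in the same direction as the members. Of 74 tested, 63 (85.1%) were higher and 2 lower in brain day 5 than in blood day 5, with a median log2 difference of 7.71. Of all genes tested, 14.3% were lower in that comparison. Against blood day 1, 62 were higher and 2 lower (14.1% of all genes lower), and against culture baseline 68 were higher and 3 lower (11.7% of all genes lower). Without the 4 libraries that stood apart, 67 were higher and 2 lower than in blood day 5, where 6376 of 15268 genes were called higher and 2876 lower.

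Of the other structural myelin genes, 13 of 15 were higher in brain day 5 than in blood day 5. Mal, a membrane-sorting proteolipid, was 8.78 ± 1.27 higher in brain day 5 on the log2 scale (SE, limma adjusted p = 3.93e-06), and Gjc3, an oligodendrocyte connexin, was at 1164 to 7587 in brain day 5 and at 0 in all blood day 5 libraries. Cd9, a tetraspanin of myelin that leukocytes and platelets also carry, did not differ detectably, at 32036 ± 25068 in brain day 5 and 26627 ± 15304 in blood day 5 (SD, n = 6 each; limma adjusted p = 0.878). The direction of its small difference depended on the scaling (0.23 as deposited, -0.23 with edgeR's).

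All 12 genes of myelin lipid metabolism and support were higher in brain day 5 than in blood day 5. Ugt8a, which makes the myelin lipid galactosylceramide, averaged 3696 ± 3448 normalized counts in brain day 5 and 1.32 ± 3.22 in blood day 5 (SD, n = 6 each). Apod, a lipid carrier, differed by 10.24 ± 1.01 and Trf, transferrin, by 4.64 ± 0.38 on the log2 scale (SE, limma adjusted p = 1.21e-08 and 6.76e-10). Car2, a carbonic anhydrase that red blood cells also hold, differed least, by 1.62 ± 0.48 (SE, limma adjusted p = 0.00766), and was not called against blood day 1 (log2 -0.06).

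Among the 15 other mature oligodendrocyte genes, 11 were higher and 4 were not called in brain day 5 against blood day 5. Cryab, a small heat shock protein, differed by 8.10 ± 1.01 and Klk6, a protease of mature oligodendrocytes, by 9.68 ± 1.41 on the log2 scale (SE, limma adjusted p = 4.94e-07 and 4.22e-06). Smaller differences were those of Sirt2, a deacetylase, at 2.00 ± 0.30 (SE, limma adjusted p = 6.88e-06) and Gsn, gelsolin, at 1.59 ± 0.65 (SE, limma adjusted p = 0.0475). Dock10, a guanine exchange factor, had a log2 difference of -0.92 ± 0.40 and was not called (SE, limma adjusted p = 0.0646). Both adjusted p-values lie near 0.05, and both differences moved with the scaling. Gsn was at 1.30 with edgeR, 1.18 with all library totals made equal and 1.69 with DESeq2. Dock10 was at -1.22, -1.32 and -0.77 in the same order.

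Among 14 other transcription factors of the lineage, 12 were higher and 1 lower in brain day 5 than in blood day 5. Olig2, the partner of Olig1, averaged 3487 ± 2381 normalized counts in brain day 5 and 38.6 ± 52.5 in blood day 5 (SD, n = 6 each). Nkx6-2 differed by 8.73 ± 1.25 and Zfp536 by 9.43 ± 0.93 on the log2 scale (SE, limma adjusted p = 3.26e-06 and 1.15e-08). Id2, an inhibitor of basic helix-loop-helix factors that innate lymphoid cells also need, was lower, at 5414 ± 2491 in brain day 5 and 16393 ± 3619 in blood day 5 (SD, n = 6 each; log2 difference -1.69 ± 0.26, limma adjusted p = 7.34e-06).

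Of 18 other precursor genes, 15 were higher and 1 lower in brain day 5 than in blood day 5. Cspg4, the NG2 proteoglycan of precursors and pericytes, averaged 5722 ± 4048 normalized counts in brain day 5 and 3.42 ± 8.38 in blood day 5 (SD, n = 6 each). Tnr, a matrix glycoprotein, differed by 10.60 ± 0.79 and Bmp4, a growth factor of committed precursors, by 9.04 ± 1.29 on the log2 scale (SE, limma adjusted p = 1.09e-10 and 3.08e-06). Fyn, a kinase that lymphocytes share with oligodendrocytes, was lower, at 1728 ± 138 in brain day 5 and 11813 ± 1984 in blood day 5 (SD, n = 6 each; log2 difference -2.76 ± 0.22, limma adjusted p = 3.55e-10).

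In blood, 24 of the 74 genes (32.4%) were higher and 4 lower at day 5 than at culture baseline, beside 19.6% of all genes tested called higher and 11.4% lower. At day 1, 22 (29.7%) were higher and 3 lower than at baseline, beside 18.1% called higher and 14.0% lower of all genes tested.

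The genes whose level over the 6 brain libraries followed the mean log2 level of Mag, Mog, Mobp and Opalin most closely were sought among 4447 genes called higher in brain day 5 than in blood day 5 with a brain mean of at least 100. Among the closest, the standard deviation of the log2 ratio was 0.0941 for Nek6, 0.131 for Mid1ip1, 0.132 for Pon2, 0.135 for Glb1, 0.147 for Slc35b1, 0.153 for Lgals3bp and 0.166 for Slc25a10. This is a description over 6 libraries only. Among the members outside that mean the values were larger, Mbp at 0.389, Cnp at 0.422, Olig1 at 0.879, Sox10 at 1.47 and Pdgfra at 1.57. The genes that form the mean also lay further from it than the genes listed, Mog at 0.339, Mobp at 0.523, Mag at 0.627 and Opalin at 1.28. Closeness to the mean is therefore not closeness to any single one of them.

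The summed lists of choroid plexus, microglia, brain endothelium and astrocyte markers were higher in every brain library than in any other library, while the neuron list overlapped between brain and blood. In brain day 5 the choroid plexus list took 1.04% to 3.73% of the normalized total, microglia 0.562% to 1.61%, brain endothelium 0.120% to 0.423%, astrocytes 0.102% to 0.275% and neurons 0.00213% to 0.0187%. In blood day 5 the choroid plexus list took 0.000830% to 0.0185%, microglia 0.0447% to 0.0600%, brain endothelium 0.0213% to 0.0365%, astrocytes 0.00236% to 0.00935% and neurons 0.00108% to 0.00399%. All 10 choroid plexus genes, all 10 astrocyte genes, 9 of 10 microglia genes, 9 of 10 endothelial genes, 11 of 12 fibroblast and mural genes and 7 of 11 neuron genes were called higher in brain day 5 than in blood day 5. All of the genes in these 6 lists had reads in every brain library. The list of ILC2 gate and identity genes took 0.00699% to 0.0202% in brain day 5 and 0.212% to 0.284% in blood day 5, and 6 of its 9 tested genes were lower in brain day 5. The part of these cell types in the members' values was not tested.

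**Figure D5:**
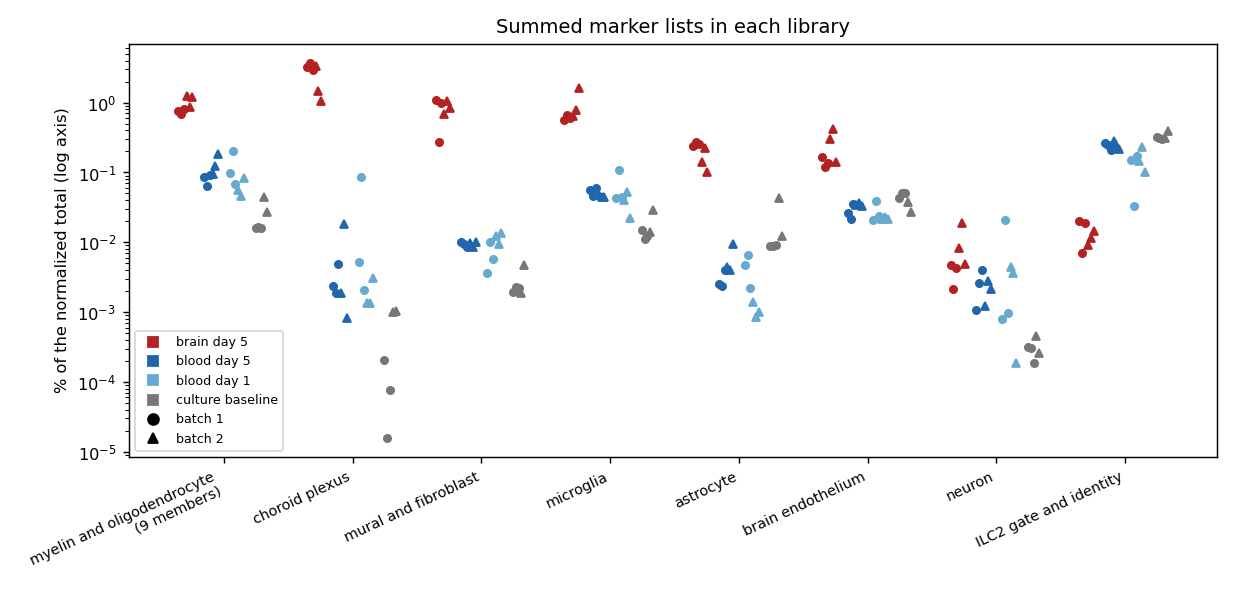
Share of the normalized total (log vertical axis, percent) taken by the members and by marker lists of other cell types in each library, colored by group, circles batch 1 and triangles batch 2. In brain day 5 the members take 0.694% to 1.25% and the neuron list at most 0.0187%, while the ILC2 list is lower than in every library of the other groups.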

How the data were processed

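Per the labels' protocols, poly-A RNA libraries made with random hexamers were sequenced as paired reads of 150 bp. The submitters' processing notes name fastp, HISAT2 2.0.5 and the build mm10; the sources used here do not state the counting tool, annotation or strand setting. The authors deposited 1 table of normalized counts (a signal value per gene, each read count divided by 1 factor per library). In all 23 libraries 100% of values were whole reads within 0.1 read of a multiple of that factor, and those reads were recovered for the count tests. The test covered the 15268 genes that reached 10 normalized counts in 5 or more libraries, all 9 members among them, and was made with limma 3.58.1 in R 4.3.3 on log2(value + 1), two-sided, with group and batch over all libraries and Benjamini-Hochberg adjustment at 0.05. Fold changes on this scale understate the change of low genes. edgeR 4.0.16 (quasi-likelihood test) on the recovered reads called 4141 genes higher and 2816 lower in brain day 5 against blood day 5; DESeq2 1.42.0, other scalings, filters, pseudocounts, weights, a replicate block, single batches and leaving out libraries were further alternatives. The fits were tested on simulated counts. The members and gene lists were chosen with earlier results of these data known. Named genes were all members, and of each other list the 3 with the highest brain mean and those with the highest and lowest difference of brain day 5 from blood day 5. Some genes that this rule or the ranking by likeness names are not reported here. A floor of 3 reads per library bounds a fold against a group at 0, and floors cover counting error only. Exon lengths are from GENCODE M21 and promoters from RefSeq GRCm38.p6. The promoter of Mbp was not used here.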

Additional observations from a re-analysis of the deposited data

Results flagged for a closer look

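Within each group of 5 or 6 libraries, the gap of the highest or lowest library to its nearest neighbour was set against the range of the group, by Dixon's criterion at 95%. It picked out 12 of 32 gene and group combinations. The criterion assumes normally distributed values, so its 95% level gives no chance rate for these untransformed counts. Of the 12, 7 were blood day 1 replicate 2, far above the other 5 libraries of its group: Mbp at 21189 normalized counts, Mog at 1170, Mobp at 9465, Opalin at 158, Cnp at 57227, Olig1 at 1638 and Sox10 at 368. These 7 come from 1 library, which had the highest normalized total of all (45458796), and are not separate events. Opalin in brain day 5 replicate 6, at 159032, lay far above the 8467 to 44521 of the other 5 brain libraries. Mag in blood day 5 replicate 2, at 924, lay above the 313 to 511 of the others. The remaining 3 were single libraries with a few reads where all others of the group had none: Sox10 in blood day 5 replicate 5 at 4.13, Sox10 in culture baseline replicate 5 at 6.65 and Mog in culture baseline replicate 5 at 7.39. With all others at 0 the gap equals the range, so such a library is always picked out.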

How the results depend on the processing

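All 9 members kept their direction and call in brain day 5 against blood day 5 and against culture baseline under each of 38 alternatives, except that DESeq2 gave no adjusted p for 1 member. Against blood day 1 the calls lost were Mobp and Cnp with edgeR and Cnp in batch 1 alone. Against culture baseline, blood day 5 had 4 members called (7 with library quality weights, 3 to 6 when a library was left out) and blood day 1 had 5 (8 with edgeR, 8 with DESeq2, 8 with quality weights, 2 with only the libraries of both groups, 2 with the closest libraries averaged, 1 in batch 2 alone, 3 to 5 when a library was left out). Between blood day 5 and blood day 1, 0 were called, and 3 in batch 2 alone. Among called differences, 1 reversed: Mobp in blood day 1 against culture baseline, 4.52 over both batches, was -2.01 in batch 2 alone. Differences that were not called also changed sign between batches, such as Sox10 in the same comparison (2.02 over both batches, -1.47 in batch 2). The Cnp call of blood day 5 against culture baseline was lost without any 1 of culture baseline replicates 1, 2 or 3 or blood day 5 replicates 1 or 3 (adjusted p 0.0598 to 0.0830), and the Mog and Mobp calls of blood day 1 without any 1 of those 3 culture replicates. Causes were not tested. The labels do not pair same-numbered libraries, and they were not treated as paired, since the correlations of their deviations ran from -0.104 to 0.189 over 33 pairs with 2 above 0.1; in 35 of 69 library comparisons the best match was the own number, a hint from the data. A replicate block ended 1 member's call, Mobp in blood day 1 against culture baseline (4.50, adjusted p = 0.0720).

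The scaling moved all genes: the median log2 difference of brain day 5 from blood day 5, blood day 1 and culture baseline was 0.47, 0.77 and 0.67 as deposited, against 0.14, 0.20 and 0.22 with edgeR. Genes called higher and lower in brain day 5 against blood day 5 were 5123 and 2183 as deposited, 4382 and 2990 at equal library totals and 4141 and 2816 with edgeR. Against blood day 1 they were 5692 and 2155, or 4144 and 3072 with edgeR, and against culture baseline 5733 and 1780, or 4784 and 2746 with edgeR and 3054 lower with quality weights. In blood day 5 against culture baseline they were 3000 and 1748, or 3665 and 1153 at equal totals, 5133 and 4500 with quality weights, 2802 lower without the 4 libraries that stood apart and 1099 lower in batch 2. In blood day 1 against culture baseline they were 2770 and 2135, or 5274 and 4647 with quality weights, 1791 and 886 in batch 2, and 1390 lower with only both groups and 1222 with the closest averaged. In blood day 5 against blood day 1 they were 15 and 1, with 5 (edgeR) to 201 (quality weights) higher and 0 to 156 lower among the alternatives. Values under about 10 normalized counts rest on a few reads, and a value of 0 is not absence.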
